A study of Ovis aries with 115 samples.

Results

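ST6GAL2 (ENSOARG00000020956) is a sialyltransferase gene and 1 of the 27054 Ensembl gene identifiers counted in every library of this series. It was chosen by its counts in Suffolk and Belclare ewes sampled in the follicular phase after synchronisation, among which the study lists it as differing. Its levels in those ewes are therefore given as a description, with no test, and tests were kept for phases, cycles and breed pairs that did not choose it. RNA was sequenced from the mid-region of the cervix, with 1 library per ewe. The study's methods, written for the synchronised follicular ewes, give its ewes as multiparous and 4 to 5 years old, and whether that holds for the ewes of the other states is not stated there. The ewes came from 4 breeds, Belclare and Suffolk in Ireland and Fur and Norwegian White Sheep (NWS) in Norway, so an Irish and a Norwegian breed always differ in country too and the 2 cannot be told apart. Each breed was sampled in 3 states, follicular after synchronisation with a progestagen sponge and equine chorionic gonadotropin at its removal (labelled Induced), follicular in a natural cycle, and luteal after synchronisation. There were 11 Suffolk, 10 Belclare, 8 Fur and 10 NWS ewes in the synchronised follicular state, 8, 10, 10 and 10 in the natural follicular state, and 10, 10, 9 and 8 in the luteal state. No luteal ewes of a natural cycle are labelled, so natural follicular against luteal is a difference of phase and of cycle type together. That each library is a separate ewe is inferred from the replicate numbers in the labels. The study describes collection of the tissue after death, for the synchronised follicular ewes.

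Sialic acids are acidic sugars that cap the ends of glycan chains on secreted and cell surface proteins. Sialyltransferases of the Golgi attach them, and ST6GAL2 and its paralogue ST6GAL1 both place sialic acid on a terminal galactose. In the cervix the heavily glycosylated mucins form mucus, whose charge and thickness change over the oestrous cycle and which sperm must cross. No protein, glycan or mucus measurement is part of these files.

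Total counts per library ranged from 12238996 to 31261671 with a median of 17835128, and 3 counts, taken here as the limit of detection, corresponded to 0.096 to 0.245 CPM, the count scaled to the library size. Raw ST6GAL2 counts ran from 3 to 424 over the 114 ewes, and 3 ewes were at that limit. A count of 3 has an exact 95% Poisson interval of 0.619 to 8.77 counts, which covers counting error only. The mean level of ST6GAL2 lay above that of 10.7% of the 14811 genes tested, so it was among the less abundant of them. Markers of epithelium (11 of 14 listed), smooth muscle (2 of 8), fibroblasts (3 of 7), endothelium (3 of 5), lymphocytes (7 of 9), neutrophils and macrophages (6 of 7) and plasma cells (3 of 3) could be named. An identifier of CXCR2 was too low to be tested, and each of the other identifiers had counts in every group. In bulk tissue, fewer cells of a type and less RNA per cell cannot be told apart.

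ST6GAL2 was highest in Suffolk ewes at the synchronised follicular phase and lowest in Belclare ewes at the luteal phase. In Suffolk synchronised follicular ewes the lowest level was 4.50 CPM, the median 7.49 and the highest 27.3, with a mean of 9.62 ± 6.43 (SD, n = 11). In Belclare luteal ewes the lowest level was 0.159 CPM, the median 0.383 and the highest 0.928, with a mean of 0.459 ± 0.256 (SD, n = 10). The ranges of these 2 groups were far apart. The medians of the other 10 groups lay between their medians, while the ranges of several of these groups overlapped with one of the 2.

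**Figure D1:**
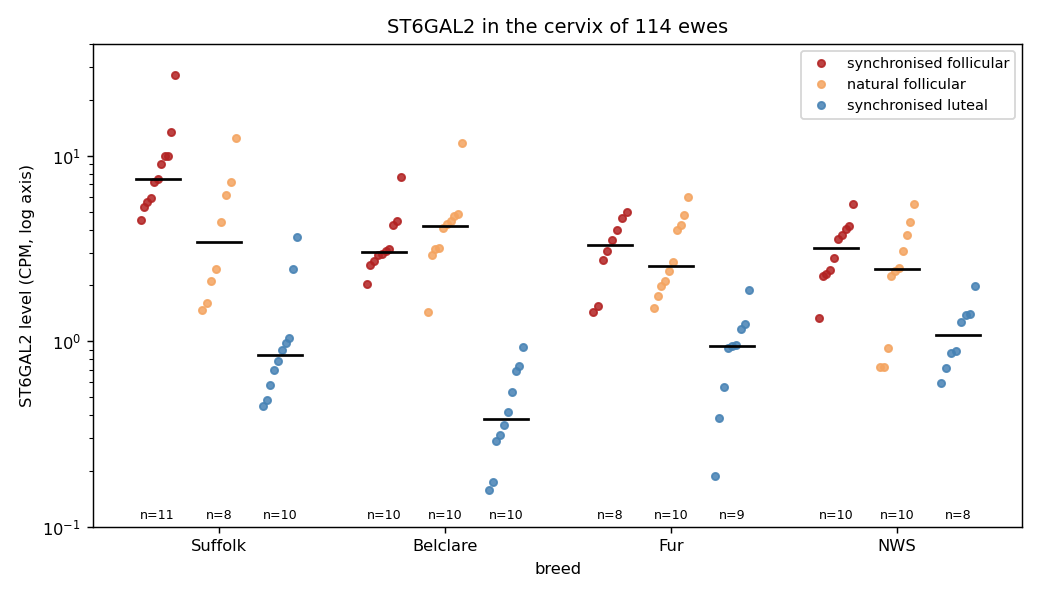
ST6GAL2 level of each ewe in CPM on a log axis, by breed and state; each point is 1 ewe, the black bar is the group median and n is the number of ewes. The 4 luteal groups have the lowest medians, from 0.383 CPM in Belclare to 1.08 in NWS, and the highest point is a Suffolk synchronised follicular ewe at 27.3 CPM.

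Ordered by median level, the Suffolk synchronised follicular group (7.49 CPM) was followed by Belclare natural (4.17), Suffolk natural (3.43), Fur synchronised follicular (3.30), NWS synchronised follicular (3.17), Belclare synchronised follicular (3.02), Fur natural (2.54) and NWS natural (2.44). The 4 luteal groups came last, NWS (1.08), Fur (0.941), Suffolk (0.839) and Belclare (0.383). In all 11 pairs of neighbours in this order the means differed by less than the larger SD and the ranges overlapped, so only groups further apart in the order were set apart by their spread. Even the top step, from Suffolk synchronised follicular to Belclare natural ewes, was a difference of 5.15 CPM between means against an SD of 6.43. Phase alone accounted for 54.9% of the variance of log2 CPM over the 114 ewes, breed alone for 5.78% and the 12 groups for 70.8%, which is a description of these libraries.

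The phase comparison asks whether ST6GAL2 differed between the follicular and the luteal cervix. It was higher in natural follicular than in luteal ewes in all 4 breeds, and higher in synchronised follicular than in luteal ewes in both breeds where that was tested. The 2 kinds of follicular ewes of a breed were compared to the same luteal ewes, so these are not independent results.

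In Fur ewes the luteal levels were 0.187 CPM at the lowest, 0.941 at the median and 1.89 at the highest (mean 0.916 ± 0.505, SD, n = 9). The synchronised follicular Fur ewes ran from 1.44 CPM over a median of 3.30 to 4.97 (mean 3.24 ± 1.30, SD, n = 8). The natural follicular Fur ewes ran from 1.52 CPM over a median of 2.54 to 6.03 (mean 3.15 ± 1.52, SD, n = 10). The overlap was small, with 6 of 8 synchronised and 8 of 10 natural follicular ewes above every luteal ewe. ST6GAL2 was 3.50-fold higher at the synchronised follicular phase than at the luteal phase (log2 fold change 1.81, standard error 0.36, adjusted p = 0.000593 by the edgeR quasi-likelihood test with Benjamini-Hochberg adjustment). A differentially expressed gene (DEG) is one with an adjusted p under 0.05 and a fold change above 1.5, and 11.9% of all genes were DEGs in the same direction in that comparison. For natural follicular against luteal Fur ewes the fold was 3.42 (log2 fold change 1.77, standard error 0.35, edgeR adjusted p = 0.000592), where 10.5% of genes were DEGs in that direction.

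In NWS ewes the luteal levels were 0.598 CPM at the lowest, 1.08 at the median and 1.98 at the highest (mean 1.14 ± 0.458, SD, n = 8). The synchronised follicular NWS ewes ran from 1.34 CPM over a median of 3.17 to 5.49 (mean 3.21 ± 1.21, SD, n = 10), and 9 of the 10 exceeded every luteal ewe. The natural follicular NWS ewes ran from 0.728 CPM over a median of 2.44 to 5.49 (mean 2.62 ± 1.60, SD, n = 10). The natural group had 3 ewes below 1 CPM, inside the luteal range, and 7 of 10 above it. The synchronised follicular level was 2.79-fold that of the luteal phase (log2 fold change 1.48, standard error 0.28, edgeR adjusted p = 0.000666; 10.3% of genes were DEGs in this direction). The natural follicular level was 2.28-fold higher (log2 fold change 1.19, standard error 0.38, edgeR adjusted p = 0.0465; 5.62% of genes). This last call is close to the threshold and was lost without the filter on low counts (adjusted p = 0.0583) and with the replicate number as a block (adjusted p = 0.174).

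The widest phase difference that could be tested was in Belclare ewes. The natural follicular Belclare ewes ran from 1.44 CPM over a median of 4.17 to 11.6 (mean 4.47 ± 2.73, SD, n = 10), and all 10 lay above all 10 luteal ewes. ST6GAL2 was 9.67-fold higher in them (log2 fold change 3.27, standard error 0.36, edgeR adjusted p = 4e-06), in a comparison where 10.8% of genes were DEGs in that direction. At the luteal phase the raw counts of Belclare ewes were 3 to 16, so this fold rests on a small denominator.

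In Suffolk ewes the luteal levels were 0.445 CPM at the lowest, 0.839 at the median and 3.65 at the highest (mean 1.20 ± 1.03, SD, n = 10). The natural follicular Suffolk ewes ran from 1.48 CPM over a median of 3.43 to 12.4 (mean 4.73 ± 3.77, SD, n = 8). Of the luteal ewes, 2 stood at 2.44 and 3.65 CPM, inside the natural follicular range, and the other 8 lay below it, so that 4 of 8 natural follicular ewes exceeded every luteal ewe. The fold was 3.88 (log2 fold change 1.96, standard error 0.49, edgeR adjusted p = 0.0106; 6.91% of genes were DEGs in this direction), and the call was lost with the replicate number as a block (adjusted p = 0.0578).

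The synchronised follicular ewes of Suffolk and Belclare belong to the comparison that chose the gene, so their phase differences are description only. In Belclare, synchronised follicular ewes ran from 2.02 CPM over a median of 3.02 to 7.65 (mean 3.58 ± 1.61, SD, n = 10). All 10 lay above every luteal ewe, at a log2 difference of 2.96 (standard error 0.32), in a comparison where 22.4% of genes were DEGs in either direction. In Suffolk, all 11 synchronised follicular ewes lay above every luteal ewe, at a log2 difference of 2.98 (standard error 0.41), where 17.1% of genes were DEGs in either direction.

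**Figure D2:**
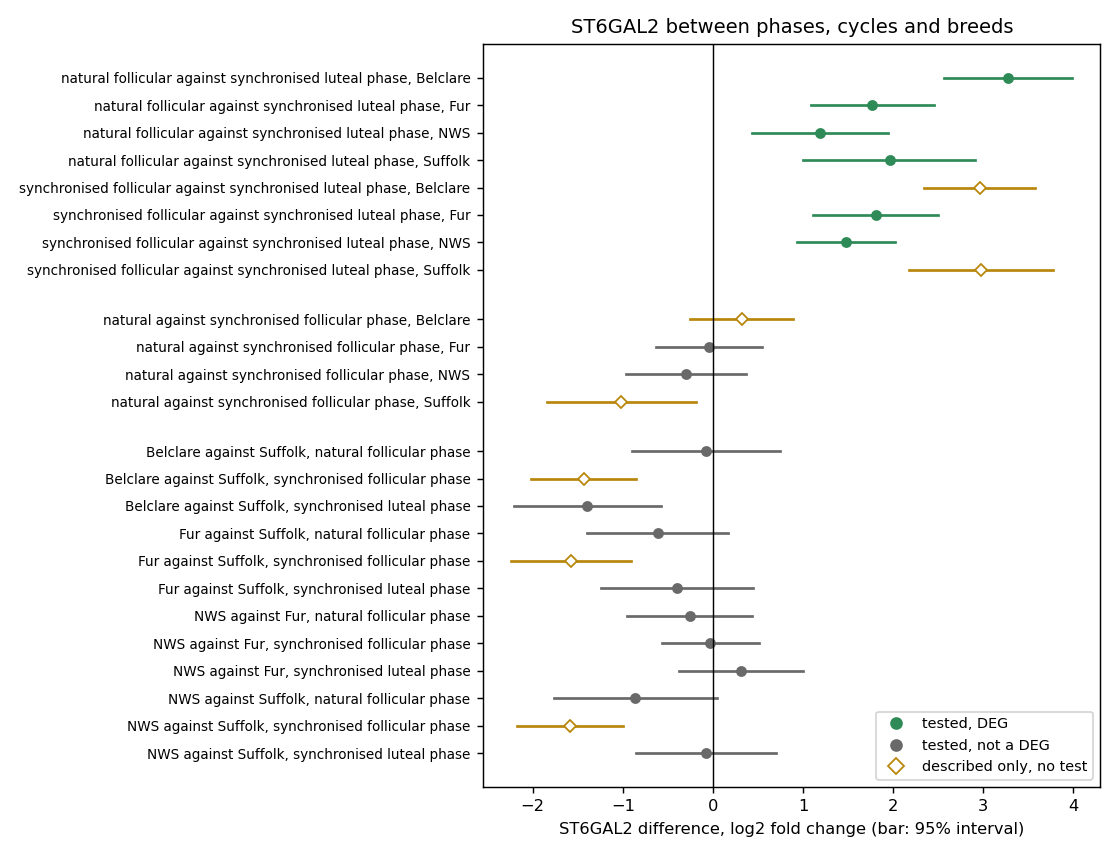
Differences of ST6GAL2 as log2 fold changes (horizontal axis) for each comparison (vertical axis), with 95% intervals by the normal approximation; green points are tested DEGs, grey points were tested and were not DEGs, and open diamonds are description only. The 6 tested phase comparisons lie between 1.19 and 3.27, whereas the intervals of the tested cycle comparisons and of 8 of the 9 tested breed comparisons include 0.

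Marker levels are given beside these results. The summed level of the 3 fibroblast markers PI16, PDGFRB and FBLN1 had medians of 704 CPM in Belclare luteal ewes (300.0 to 875), 807 in Fur (392 to 1060), 692 in NWS (353 to 1160) and 908 in Suffolk (697 to 1570). At the natural follicular phase the medians were 1410 (855 to 1980), 1050 (700.0 to 1330), 1320 (805 to 1520) and 1430 (730.0 to 1990), and at the synchronised follicular phase 1340 (885 to 2280), 1050 (659 to 1230), 1140 (910.0 to 1650) and 1520 (1130 to 3920). Of the 3, FBLN1, a secreted matrix protein, was a DEG in Belclare and NWS in natural against luteal ewes. From luteal to natural follicular its log2 fold change was 1.24 in Belclare (edgeR adjusted p = 0.000288), 0.50 in Fur (0.0511), 0.93 in NWS (0.00702) and 0.51 in Suffolk (0.132). From luteal to synchronised follicular it was 0.56 in Fur (edgeR adjusted p = 0.0257, under the fold threshold), 0.90 in NWS (0.0041) and, as description, 1.30 in Belclare and 0.78 in Suffolk. The summed level of the 6 tested identifiers of neutrophil and macrophage markers had medians of 124, 94.9, 69.2 and 76.7 CPM in luteal Belclare, Fur, NWS and Suffolk ewes and 47.0, 48.6, 42.1 and 36.3 in natural follicular ewes. The epithelial markers had medians of 1170 to 2020 CPM over the luteal groups and 1300 to 1970 over the natural follicular groups. The 2 smooth muscle markers had medians of 509 CPM in Belclare luteal ewes (79.2 to 2270), 2390 in Fur (582 to 9400), 2370 in NWS (919 to 3880) and 566 in Suffolk (318 to 981), against 563 (71.5 to 6590), 5070 (1660 to 7730), 5600 (1270 to 22600) and 475 (65.7 to 6080) in natural follicular ewes. In synchronised follicular ewes their medians were 202 CPM in Belclare, 4660 in Fur, 6030 in NWS and 265 in Suffolk, so the Irish breeds lay below their luteal medians. ACTG2 was higher in synchronised follicular than in luteal ewes by 1.33 on the log2 scale in Fur (edgeR adjusted p = 0.0163) and 1.89 in NWS (0.000269). DES was higher by 0.94 in NWS (0.00843) and had 0.38 in Fur (0.512). As description, ACTG2 had 1.6 in Belclare and -0.18 in Suffolk, and DES 0.87 and -1.24. Between natural follicular and luteal Belclare ewes, DEGs in both directions occurred among the 7 lymphocyte markers. Their summed medians were 54.6, 46.2, 39.9 and 76.1 CPM in luteal and 76.3, 52.0, 52.9 and 61.8 in natural follicular Belclare, Fur, NWS and Suffolk ewes. The part of these markers in the ST6GAL2 difference was not tested.

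Cycle type was compared within the follicular phase, and ST6GAL2 did not pass the test in either Norwegian breed. In Fur ewes the natural level differed from the synchronised one by a log2 fold change of -0.04 (standard error 0.30, 95% interval -0.63 to 0.55, edgeR adjusted p = 0.949), and 4.92% of genes were DEGs in either direction. In NWS ewes it was -0.30 (standard error 0.34, 95% interval -0.97 to 0.37, edgeR adjusted p = 0.740), and 0.0135% of genes were DEGs. As description only, the log2 difference was 0.32 (standard error 0.29) in Belclare and -1.02 (standard error 0.42) in Suffolk, where 5 of 8 natural ewes lay below the lowest synchronised ewe and none lay above the highest.

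Breeds were compared to Suffolk, the reference breed of the study. In the synchronised follicular ewes that chose the gene, Suffolk had the higher level. The lowest of the 11 Suffolk ewes stood at 4.50 CPM, and 9 of 10 Belclare, 6 of 8 Fur and 9 of 10 NWS ewes were below it. The highest Suffolk ewe (27.3 CPM) stood above the next (13.5 CPM), and the remaining Suffolk ewes were at 10.02 CPM or less. The log2 differences to Suffolk were -1.43 (standard error 0.30) in Belclare, -1.57 (0.34) in Fur and -1.59 (0.30) in NWS. In these comparisons 0.00675%, 13.3% and 18.7% of all genes were DEGs in either direction, and nothing is read from these values. The difference of NWS to Fur at this phase did not use the Suffolk ewes and was -0.03 on the log2 scale (standard error 0.27, 95% interval -0.57 to 0.51, edgeR adjusted p = 0.994), where 0.00675% of genes were DEGs in either direction.

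At the natural follicular phase ST6GAL2 was not a DEG between any pair of breeds tested. The Suffolk ewes had the widest spread there, from 1.48 to 12.4 CPM, and their range overlapped with that of each other breed. Belclare differed from Suffolk by a log2 fold change of -0.08 (standard error 0.42, 95% interval -0.90 to 0.74, edgeR adjusted p = 0.965). Fur differed by -0.61 (standard error 0.40, 95% interval -1.40 to 0.17, edgeR adjusted p = 0.284) and NWS by -0.86 (standard error 0.46, 95% interval -1.76 to 0.04, edgeR adjusted p = 0.312). All 3 intervals include 0, and those of Fur and NWS reach below -1. NWS differed from Fur by -0.26 (standard error 0.35, 95% interval -0.95 to 0.43, edgeR adjusted p = 0.774). DEGs in either direction were 9.62% of genes for Fur against Suffolk, 0.993% for NWS against Suffolk and 0.0338% for NWS against Fur. For Belclare against Suffolk edgeR called 0 genes, with 1443 at an unadjusted p under 0.05, and DESeq2's Wald test called 18. The smooth muscle markers ACTG2 and DES, the 2 of 8 with a name, had summed levels in the same ewes of 65.7 to 6080 CPM in Suffolk, 71.5 to 6590 in Belclare, 1660 to 7730 in Fur and 1270 to 22600 in NWS. Their part in the breed values was not tested.

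At the luteal phase Belclare had the lowest ST6GAL2 level of the 4 breeds. Of the 10 Belclare ewes, 6 lay below the lowest Suffolk ewe and 4 of 10 Suffolk ewes lay above the highest Belclare ewe. The level was 2.63-fold lower in Belclare (log2 fold change -1.40, standard error 0.42, 95% interval -2.21 to -0.58). After adjustment over 14811 genes this did not pass the threshold (unadjusted p = 0.00316, adjusted p = 0.0661 by the edgeR quasi-likelihood test), in a comparison where 2.43% of genes were DEGs in either direction and 1.69% were lower in Belclare. The call depended on the test, since it passed with DESeq2's Wald test (adjusted p = 0.0265) and in 1 edgeR fit of all 12 groups (adjusted p = 0.0123). The fibroblast marker sum had medians of 704 CPM in these Belclare and 908 in these Suffolk ewes, and its part was not tested. Fur (log2 fold change -0.40, standard error 0.43, edgeR adjusted p = 0.503) and NWS (-0.08, standard error 0.40, edgeR adjusted p = 0.928) did not pass the test against Suffolk, and neither did NWS against Fur (0.31, standard error 0.35, edgeR adjusted p = 0.770). In these 3 comparisons 13.8%, 4.35% and 0.0405% of genes were DEGs in either direction.

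Whether the phase difference itself differed between breeds was tested as an interaction over natural follicular and luteal ewes. The difference of Belclare to Suffolk changed by 1.31 on the log2 scale between the states (standard error 0.60, 95% interval 0.13 to 2.50, unadjusted p = 0.0356), which did not pass after edgeR's adjustment over all genes (adjusted p = 0.410). For Fur the change was -0.19 (standard error 0.61, edgeR adjusted p = 0.907) and for NWS -0.76 (standard error 0.63, edgeR adjusted p = 0.888). As interactions, 1.23% of genes were called for Fur and 0.0135% for NWS, and for Belclare edgeR called 0, with 1617 at an unadjusted p under 0.05. The phase difference is thus not shown to differ between Suffolk and any other breed.

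Other genes of sialic acid metabolism were taken from a list of 32, of which 5 could be named in the files. These names come from the study's supplementary tables, the readable part of which lists mostly genes higher in Suffolk ewes at the synchronised follicular phase, so the lists are not independent of direction in any comparison with Suffolk. The share over all genes is also an unlike base for the phase counts of this and the following lists, and nothing is read from those counts. ST6GAL1 (ENSOARG00000020506), the paralogue of the same linkage, did not follow ST6GAL2 between phases. Its log2 fold changes from luteal to natural follicular were -0.10 in Belclare, -0.16 in Fur, -0.28 in NWS and -0.40 in Suffolk, none of them a DEG. Its highest ewes were luteal ones, a Belclare at 36.7 CPM and a Fur at 34.3, against medians of 3.97 and 9.66 in their groups. Over 114 ewes centred on their group, Pearson's r of ST6GAL1 with ST6GAL2 was 0.11, and over the 12 group means it was 0.20. The highest and lowest group medians of ST6GAL1 were in the same groups as those of ST6GAL2. They were 14.9 CPM in Suffolk synchronised follicular ewes and 3.97 in Belclare luteal ewes. As description, ST6GAL1 differed from Suffolk at the synchronised follicular phase by -1.1 on the log2 scale (standard error 0.26) in Belclare. In Fur it was -0.75 (0.22) and in NWS -0.33 (0.25).

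**Figure D3:**
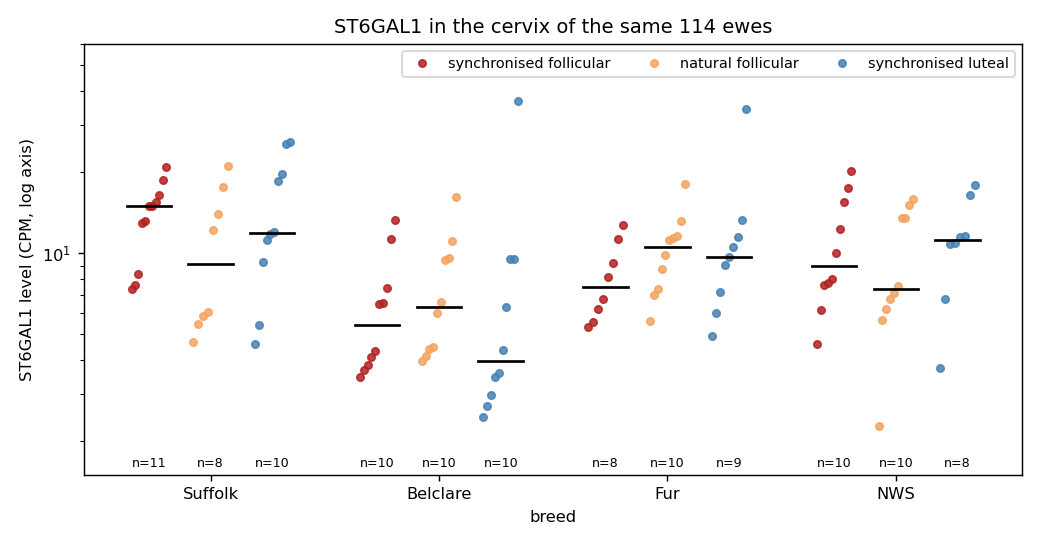
ST6GAL1 level of each ewe in CPM on a log axis, by breed and state, with the group median as a black bar and the number of ewes as n. The luteal medians (3.97 CPM in Belclare, 9.66 in Fur, 11.2 in NWS and 11.9 in Suffolk) do not sit apart from the follicular ones as those of ST6GAL2 do.

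NPL, the lyase that splits free sialic acid, moved with phase in every breed. From luteal to natural follicular its log2 fold change was 1.17 in Belclare, 1.53 in Fur, 1.60 in NWS and 2.50 in Suffolk, each a DEG. The Suffolk ewes ran from 1.72 to 16.5 CPM at the luteal phase (median 7.80) and from 6.33 to 153 at the natural follicular phase (median 35.6), with overlap. NEU1, the lysosomal enzyme that removes sialic acid from glycans, had log2 fold changes of 0.21, 0.46, 0.58 and 0.50 in the same order, all below the fold threshold. ST8SIA2, which builds chains of sialic acid, was a DEG in Suffolk in this comparison (1.06) and had 0.38 in Belclare, 0.83 in Fur and 0.10 in NWS. RENBP, an epimerase of amino sugars, was a DEG in Fur (0.78) and had 0.56 in Belclare, 0.24 in NWS and -0.52 in Suffolk. In Fur ewes RENBP was not a DEG from luteal to synchronised follicular (0.13) and was one from synchronised to natural follicular (0.65). In NWS it was a lower DEG in synchronised follicular than in luteal ewes (-0.63). In the interaction tests of Belclare, Fur and NWS with Suffolk over natural follicular and luteal ewes, none of the 5 genes was called. The differences between these 2 states are thus not shown to differ from those of Suffolk. Of the 5 genes, 1, 2, 1 and 2 were DEGs higher at the natural follicular phase in Belclare, Fur, NWS and Suffolk, where 10.8%, 10.5%, 5.62% and 6.91% of all genes were. The medians of the 5 were 0.38, 0.78, 0.24 and 0.50 on the log2 scale, beside -0.01, 0.00, 0.00 and 0.01 over all genes.

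Mucins, the main carriers of sialic acid in mucus, were represented by 4 of 11 listed genes. MUC16, a membrane mucin, was higher at the natural follicular phase in Belclare (log2 fold change 1.72), Fur (1.40) and Suffolk (1.19), each a DEG, and had 0.64 in NWS, which did not pass. In Belclare its median rose from 542 CPM in luteal to 1855 in natural follicular ewes, with ranges of 345 to 1026 and 872 to 3453. MUC1 and MUC5B were DEGs in Belclare (0.90 and 1.45) and did not pass in natural follicular against luteal ewes of the other breeds, and no mucin was called in the interaction tests. MUC5AC, a secreted gel mucin, was spread over a wide range among ewes of 1 group, from 0.748 to 328 CPM in Belclare luteal ewes, and had log2 fold changes of -0.76 in Belclare, 0.51 in Fur, 0.63 in NWS and -1.43 in Suffolk. Of the 4 mucins, 3 were DEGs higher at the natural follicular phase in Belclare, 1 in Fur, none in NWS and 1 in Suffolk, beside 10.8%, 10.5%, 5.62% and 6.91% of all genes. From luteal to synchronised follicular, 3 were higher DEGs in Fur (MUC1 0.82, MUC5AC 1.19, MUC16 1.59) and 2 in NWS (MUC5AC 1.94, MUC16 0.83). There 11.9% and 10.3% of all genes were. As description, 3 were in Belclare and 3 in Suffolk, where 22.4% and 17.1% of genes were DEGs in either direction. Between breeds, 3 of 4 were DEGs lower in Fur than in Suffolk at the natural follicular phase (5.08% of all genes were) and 3 of 4 at the luteal phase (7.40% of all genes), whereas ST6GAL2 passed in neither. The mucins could be named only through tables that list mostly genes higher in Suffolk, so this direction is favoured by the naming and nothing is read from the count. In the same comparisons 5 and 2 of 11 epithelial markers were lower in Fur (median log2 fold changes of -0.55 and -0.47), and the 2 smooth muscle markers had medians of 1.73 and 2.44, both of them higher DEGs at the luteal phase. Their part in the mucin values was not tested.

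**Figure D4:**
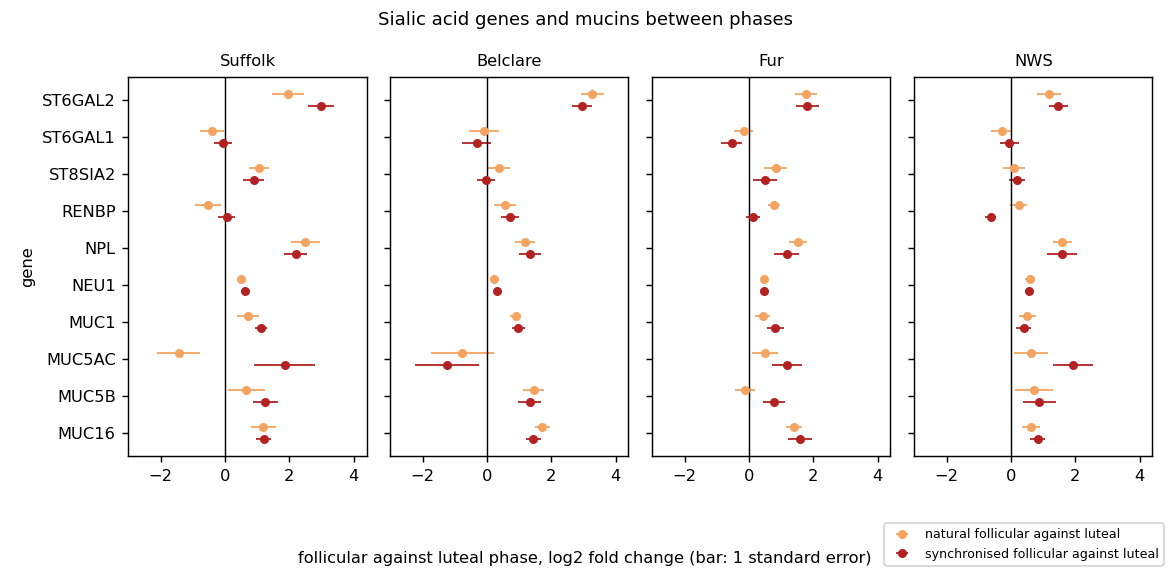
Log2 fold changes of the follicular against the luteal phase (horizontal axis, bars of 1 standard error) for ST6GAL2, the 5 named sialic acid genes and the 4 named mucins (vertical axis) in each breed, for natural and synchronised follicular ewes. ST6GAL2 lies right of 0 in every panel, from 1.19 to 3.27, and NPL from 1.17 to 2.50, whereas ST6GAL1 lies between -0.53 and -0.05.

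Among enzymes that build glycan chains, 15 of a list of 92 could be named. Of these, 2 in each breed were DEGs higher at the natural follicular phase, a share not far from that over all genes (10.8%, 10.5%, 5.62% and 6.91% in Belclare, Fur, NWS and Suffolk), and 1, in Fur, was lower, as were 8.05% of all genes in Fur. B3GALT6, a galactosyltransferase, had log2 fold changes of 2.28 in Belclare, 1.45 in NWS and 2.02 in Suffolk, each a DEG, and 0.81 in Fur, which did not pass. CHST7, a sulfotransferase, was higher in Belclare (1.59), Fur (1.53) and NWS (1.35). GALNT15, which starts mucin type chains, was the gene lower in Fur (-1.61). B4GALT1, which adds the galactose that a sialyltransferase of this family can cap, passed in Fur (0.69) and had 0.55 in Belclare, 0.45 in NWS and 0.42 in Suffolk, and no gene of this list was called in the interaction tests. The list's medians were 0.24, 0.14, 0.13 and 0.22 in Belclare, Fur, NWS and Suffolk.

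Lysosomal enzymes that break glycans down were also followed. Of 10 identifiers with 8 names, from a list of 13, 7 were DEGs higher at the natural follicular phase in Belclare, 8 in Fur, 9 in NWS and 5 in Suffolk, beside 10.8%, 10.5%, 5.62% and 6.91% of all genes. These names too come from the study's lists of breed differences, so the share over all genes is an unlike base. FUCA1, a fucosidase, had log2 fold changes of 0.81, 0.87, 1.0 and 0.93 in Belclare, Fur, NWS and Suffolk. MAN2B2, a mannosidase, is listed under 3 identifiers that may share reads, so its values are uncertain, and it makes up 3 of the calls in each of Belclare, Fur and NWS. The list's medians were 0.86, 0.77, 0.79 and 0.53, beside 3.27, 1.77, 1.19 and 1.96 for ST6GAL2 alone. From luteal to synchronised follicular, 2 of the 10 were higher DEGs in Fur and 2 in NWS, where 11.9% and 10.3% of all genes were. As description, 10 were in Belclare and 6 in Suffolk, where 22.4% and 17.1% of genes were DEGs in either direction. In Fur, 4 of the 10 were higher DEGs in natural than in synchronised follicular ewes (4.92% of genes in either direction). In the interaction tests 1 of the 10 was called for Fur, where 1.23% of all genes were, and none for Belclare or NWS.

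The genes whose pattern was most like that of ST6GAL2 were sought by Pearson's r of log2 CPM over the 114 ewes, each gene centred on its mean in each of the 12 groups. The points share their libraries, r is a description, and the median over all genes was 0.00. CRISPLD2, a secreted protein, had the highest r of all 14810 other genes (0.71). The unnamed ENSOARG00000016115 followed (0.65), and then ANGPTL2, an angiopoietin-like secreted protein (0.64), NID1, a basement membrane protein (0.61), SPON1, a secreted matrix protein (0.61), RAB31, a small GTPase of vesicle traffic (0.59), and PRR16 (0.59). In 52 genes r was above 0.5. The lowest named genes were EFNA1, an ephrin ligand (-0.42), YPEL3 (-0.42) and PTPRCAP, a lymphocyte protein (-0.39). Over the 12 group means, the named genes of highest r included HSD11B1, which regenerates active glucocorticoid (0.97), PADI4, a peptidylarginine deiminase (0.97), SCNN1D, a sodium channel subunit (0.96), RAB31 (0.96) and MMP14, a membrane matrix metalloproteinase (0.96). A high r was common over these means, with 204 genes (1.38%) above 0.9.

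The fold between phases was not used when the 6 named genes were ranked on centred values. They were picked only from the 1337 genes with a name, though. Those names come from the study's lists of genes differing between breeds at the synchronised follicular phase. The share over all genes is therefore an unlike base for the counts that follow, and nothing is read from them. From luteal to natural follicular, 6 of the 6 were DEGs higher in Belclare, 5 in Fur, 3 in NWS and 4 in Suffolk, beside 10.8%, 10.5%, 5.62% and 6.91% of all genes. ANGPTL2 had log2 fold changes of 2.93, 1.81, 1.72 and 1.85 in these breeds and CRISPLD2 of 1.56, 0.96, 1.24 and 1.41, all of them DEGs. The CRISPLD2 level ran from 36.6 to 106 CPM in Belclare luteal ewes (median 69.5) and from 89.3 to 353 in Belclare natural follicular ewes (median 181). At the luteal phase ANGPTL2 was lower in Belclare than in Suffolk by 1.19 on the log2 scale (edgeR adjusted p = 0.0439), while CRISPLD2 did not pass (-0.60, edgeR adjusted p = 0.176).

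Marker sums were set against ST6GAL2 in the same way. Over 114 ewes centred on their group, r was 0.49 with the fibroblast sum, 0.14 with lymphocytes, 0.01 with epithelium, 0.01 with plasma cells, -0.10 with endothelium, -0.13 with smooth muscle and -0.17 with neutrophils and macrophages. Over the 12 group means it was 0.90 with the fibroblast sum, 0.49 with lymphocytes, 0.20 with epithelium, 0.11 with plasma cells, -0.06 with endothelium, -0.14 with smooth muscle and -0.64 with neutrophils and macrophages. Within the fibroblast list the centred r was 0.48 for FBLN1, 0.45 for PDGFRB and -0.08 for PI16, and over group means 0.90, 0.58 and -0.19. The Suffolk ewe with the highest ST6GAL2 level also had the highest fibroblast sum (3920 CPM) and the highest CRISPLD2 level (762 CPM) of all ewes. With the total count r was 0.12 over ewes.

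**Figure D5:**
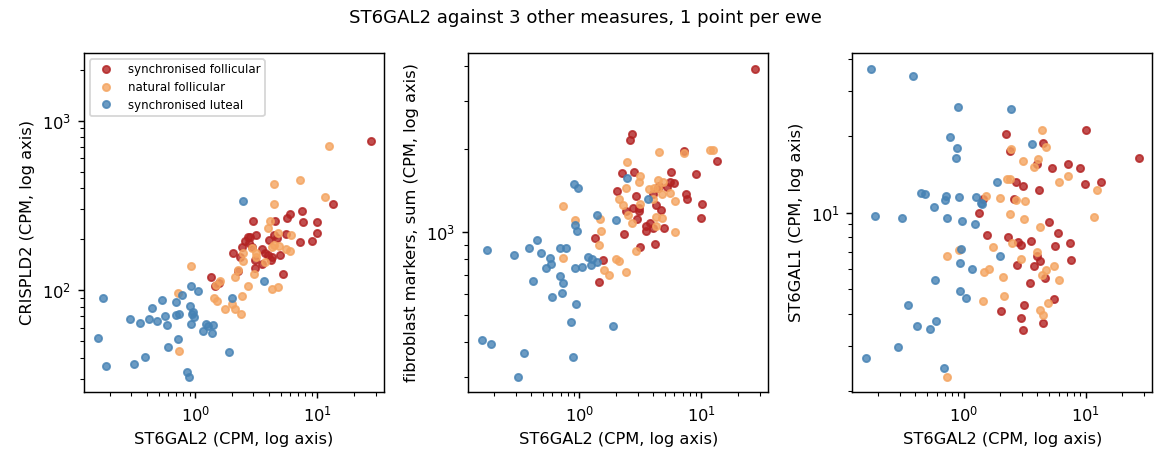
Level of CRISPLD2, of the summed fibroblast markers and of ST6GAL1 (vertical axes) against ST6GAL2 (horizontal axes), all in CPM on log axes; each point is 1 of 114 ewes, coloured by state. CRISPLD2 and the fibroblast sum run upward with ST6GAL2 (centred r of 0.71 and 0.49), and ST6GAL1 does not (0.11).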

How the data were processed

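The authors trimmed paired reads, aligned them to Oar_v3.1 with STAR, kept uniquely mapped pairs and deposited raw counts per Ensembl gene (featureCounts of Subread), without normalization. The labels give STAR 2.6.1b and Subread 1.6.3. The strand setting of the counting is not given in the sources used here, so an antisense transcript could not be told apart. Read pairs that match several places are already lost from these counts.

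Of 115 libraries 114 were grouped by their labels, and 1 with conflicting labels was left out. The 14811 genes analysed reached 1 CPM in no fewer than 10 of 39 ewes of the synchronised follicular state. The same genes were used for every state, so genes reaching that level only in other states, such as the luteal one, are left out. The shares of genes higher or lower between phases rest on this choice. Each comparison was fitted on its own ewes with edgeR 4.0.16 in R 4.3.3 (TMM, quasi-likelihood F test, Benjamini-Hochberg adjustment over all 14811 genes), with DEGs called at an adjusted p below 0.05 and over 1.5-fold. The study used a likelihood ratio test of DESeq2. In all, 20 comparisons were tested and 7 described. Standard errors are the log2 fold change divided by the square root of F. Levels are CPM on TMM sizes over the 114 ewes, and correlations use log2 CPM with a prior count of 2. The fits were tried on simulated data first. No 2 libraries of a group agreed within counting noise (lowest chi-square per degree of freedom 15.38 over 490 pairs).

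The gene and the lists were chosen with earlier results of these data known. Named genes are ST6GAL2, list members with a name (all for sialic acid genes and mucins, otherwise as examples), the 6 most like and 3 least like named genes on centred values, and the 6 most like over group means. Of these, 2 genes are not reported here. Marker sums against ST6GAL2 are a later addition, made with the data in view. The study's tables name 1352 identifiers. No annotation of Oar_v3.1 was used here, so no coordinates or sequences are given. Alternatives were DESeq2 1.42.0 size factors and its Wald test, no filter or at least 10 counts in every ewe, all 12 groups in 1 fit, a replicate number block, and leaving out 1 ewe at a time for 5 breed comparisons (92 fits).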

Additional observations from a re-analysis of the deposited data

Results flagged for a closer look

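By Dixon's test on groups of up to 10 ewes, 4 values stood apart from their group, and 22 groups were examined for ST6GAL2 and ST6GAL1. Chance flags about 1 in 20 groups where values are normally distributed. The test was run on CPM, all 4 values were high ones, and right-skewed levels would be flagged more often. The Suffolk synchronised follicular ewes (n = 11), with the highest ST6GAL2 level, were outside the size limit. ST6GAL2 was at 7.65 CPM in Belclare synchronised follicular replicate 9, where the next ewe was at 4.44 CPM. It was at 11.6 CPM in Belclare natural follicular replicate 8, where the next ewe was at 4.88 CPM. ST6GAL1 was at 36.7 CPM in Belclare luteal replicate 7, where the next ewe was at 9.54 CPM, and that ewe had one of the lowest ST6GAL2 levels of its group (0.174 CPM). ST6GAL1 was at 34.3 CPM in Fur luteal replicate 8, where the next ewe was at 13.2 CPM.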

How the results depend on the processing

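Over the 20 tested comparisons and the settings tried, 95 of 105 values kept their direction and their side of the threshold, 5 changed direction, 3 lost a call and 2 gained one. The filter of at least 10 counts in every ewe removed ST6GAL2 from many comparisons and gave no value there. The changes of direction were all with the replicate block and among differences near 0 that were not called: Belclare against Suffolk at the natural follicular phase (0.27), NWS against Suffolk at the luteal phase (0.08), NWS against Fur at the synchronised follicular phase (0.08), natural against synchronised Fur ewes (0.04) and the Fur interaction (0.12). The calls lost were natural follicular against luteal NWS ewes without the filter (1.20) and with the block (0.95), and the same comparison in Suffolk ewes with the block (1.70). The call gained was Belclare against Suffolk at the luteal phase, with DESeq2's Wald test (-1.41) and with all 12 groups in 1 fit (-1.39). The cause was not tested. The replicate numbers were not taken to pair the samples, since the libraries are taken to be of different animals. The median correlation of same-numbered ewes ran from -0.211 to 0.162 over the comparisons, and in no comparison did every pair exceed 0.1.

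With each ewe left out in turn, 85 of 92 values kept direction and side of the threshold. The log2 fold change against Suffolk ranged from -0.36 to 0.30 for Belclare natural follicular, -0.76 to -0.23 for Fur natural follicular, -1.05 to -0.47 for NWS natural follicular, -1.57 to -1.01 for Belclare luteal and -0.24 to 0.30 for NWS luteal ewes. Without Suffolk luteal replicate 6 the Belclare luteal difference passed (-1.46, edgeR adjusted p = 0.0436), and over all ewes left out the adjusted p was 0.0436 to 0.131. The Belclare natural value changed sign without Belclare replicate 1 (0.02), Suffolk replicate 2 (0.03) or 9 (0.30), and the NWS luteal value without NWS replicate 8 (0.01), Suffolk replicate 7 (0.09) or 8 (0.30). The phase comparisons were not refitted in this way.

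The number of DEGs against Suffolk moved more than 1.5 times in these cases. Natural Belclare went from 0 to 18 with the Wald test, 1 without the filter and 40 in 1 fit. Natural Fur went from 1425 to 942 with the block. Natural NWS went from 147 to 830 (Wald test), 0 (block) and 1328 (1 fit). Luteal Belclare went from 360 to 938 (Wald test), 18 (block) and 990 (1 fit), and luteal NWS from 645 to 211 (block). Of the 6 named genes most like ST6GAL2, 5 were chosen again with a prior count of 0.5.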

Other observations

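The library left out of the groups is a Suffolk one whose title and other labels name different cycles and phases. It held 26 ST6GAL2 counts of 15387419 (1.69 CPM on its total count), and 15.3 CPM of ST6GAL1.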
